A study of Mus musculus with 6 samples.

Results

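The genes described here are Foxf1, Foxf2, Fendrr, Isl1, Evx1, Shh and Foxa1, 7 of the 20033 genes in a table of expression in the mouse mesonephros. They were chosen by name because earlier results of the same data showed them high in 2 knockout libraries, so their knockout and control levels are given as a description, and no conclusion is drawn from the calls printed for them. The libraries came from male mesonephroi at E12.5, from 3 control and 3 knockout embryos, each 1 library. The mesonephros is the transient embryonic kidney with its tubules, mesenchyme and Wolffian duct. The knockout was global for Wnt9b, a Wnt ligand of the duct epithelium (Wnt9b-/-), and the study addressed its role in the duct and in androgen action. The control embryos are described as Wnt9b+/+ in the design text and as heterozygous in the genotype field, so they are called controls. The sources used here name no strain, litter or batch.

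In the gut, bladder and cloaca, which is the shared caudal outlet of the embryo, the epithelium secretes Shh and the mesenchyme around it answers with the forkhead factors Foxf1 and Foxf2. Foxa1 is a forkhead factor of such endodermal epithelia. Isl1 is a LIM homeodomain factor of cloacal and genital mesenchyme that also marks motor, sensory and sympathetic neurons, and Evx1 is a homeodomain factor of the caudal embryo whose gene lies at the end of the Hoxa cluster. Fendrr is a long noncoding RNA whose gene lies beside Foxf1.

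The RefSeq promoter table (GRCm38.p6, whereas the submitters' notes name GRCm39) held entries for 5 of the 7 genes: Fendrr, Foxf2, Isl1, Evx1 and Foxa1. The 250 bases before the gene start were searched on both strands for a forkhead motif (TGTTTAC), a GLI motif of hedgehog effectors (TGGGTGGTC), a posterior HOX motif (TTTATTG) and a LIM homeodomain motif (CTAATG). The 3 promoters with a match are shown because they carry motifs of factor families to which these genes belong or that act beside them. They are written 5′ to 3′ on the gene's strand, and capitals mark the matches, all of which read as the reverse complement. Fendrr is from chr8:121083111-121083360, minus strand. Foxa1 is from chr12:57546112-57546361, minus strand. Evx1 is from chr6:52313248-52313497, plus strand.
Fendrr: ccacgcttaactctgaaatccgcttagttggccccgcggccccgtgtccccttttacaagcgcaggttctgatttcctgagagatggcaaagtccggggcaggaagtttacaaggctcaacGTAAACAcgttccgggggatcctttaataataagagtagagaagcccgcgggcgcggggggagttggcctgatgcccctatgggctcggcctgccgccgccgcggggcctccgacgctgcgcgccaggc
Foxa1: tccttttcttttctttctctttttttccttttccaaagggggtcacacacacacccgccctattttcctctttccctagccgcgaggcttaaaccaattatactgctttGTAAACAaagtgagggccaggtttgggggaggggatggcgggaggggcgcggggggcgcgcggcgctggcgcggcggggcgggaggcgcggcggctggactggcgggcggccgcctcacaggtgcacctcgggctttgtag
Evx1: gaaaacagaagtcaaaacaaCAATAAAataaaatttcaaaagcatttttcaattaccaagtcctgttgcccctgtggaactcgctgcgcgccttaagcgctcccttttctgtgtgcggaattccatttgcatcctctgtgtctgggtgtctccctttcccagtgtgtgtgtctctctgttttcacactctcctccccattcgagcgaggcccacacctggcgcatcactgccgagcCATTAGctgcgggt

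The forkhead letters began 129 bases before the start of Fendrr and 141 bases before that of Foxa1. They occurred in 3.17% of the 32851 promoters of the table. The Evx1 promoter held the posterior HOX letters 230 bases and the LIM homeodomain letters 14 bases before the start, which occurred in 4.20% and 6.36% of promoters. The GLI letters were in 0.225% of promoters and in none of the 5. The Foxf2 and Isl1 windows held none of the 4 motifs. A match of letters is a description and not a bound site. The 5 promoters ran from 49.6% GC (Evx1) to 71.6% GC (Foxf2), where the median promoter had 52.4%.

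Levels are in TPM, a unit scaled by the length of each gene and by the size of the library, so genes can be compared within a library. The libraries are called control 1 to 3 and knockout 1 to 3. Of all 17577 genes tested by limma on log2(TPM + 1), 78 (0.444%) differed between the groups at an adjusted p under 0.05. Leaving out control 1 gave 28 such genes, control 2 gave 13 and control 3 gave 14. Leaving out knockout 1 gave 30, knockout 2 gave 22 and knockout 3 gave 242, so only the omission of knockout 3 raised the count. Wnt9b was at 24.9 to 34.0 TPM in controls and 19.0 to 23.4 TPM in knockouts. Reads from any undeleted part of the locus enter that value, so it checks the labels little. Mitochondrial genes took 6.19% to 7.32% and globin genes 1.32% to 1.85% of TPM. In such whole-tissue libraries fewer cells of a type and less RNA per cell cannot be told apart.

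Shh, the secreted hedgehog ligand (ENSMUSG00000002633), was at 5.27, 5.49 and 6.65 TPM in the controls and at 21.5, 9.92 and 5.16 TPM in the knockouts. Knockout 1 and knockout 2 lay above every control, and knockout 3 lay just below the lowest control. Foxa1 (ENSMUSG00000035451) was at 0, 0.0728 and 0.375 TPM in the controls and at 7.78, 2.22 and 1.94 TPM in the knockouts. The values of Foxa1 did not overlap between the groups. The control values of Foxa1 rest on 0, 1 and 5 reads, against 119, 31 and 27 reads in the knockouts. These reads were recovered from the deposited values.

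Foxf1 (ENSMUSG00000042812), which hedgehog signals switch on in visceral mesenchyme, was at 1.40, 1.75 and 1.86 TPM in the controls and at 34.6, 15.7 and 2.27 TPM in the knockouts. Knockout 1 was 20.7 times and knockout 2 was 9.41 times the control mean, and knockout 3 stood 1.36 times that mean, just above the highest control. Foxf2 (ENSMUSG00000038402), its paralogue, was at 0.435, 0.410 and 0.738 TPM in the controls and at 24.1, 6.40 and 0.303 TPM in the knockouts. Only knockout 1 and knockout 2 exceeded the controls for Foxf2. Fendrr (ENSMUSG00000097336), the noncoding neighbour of Foxf1, was at 0.0619, 0.364 and 0.375 TPM in the controls and at 24.4, 6.99 and 0.287 TPM in the knockouts. Knockout 3 fell within the controls for Fendrr. Its control values rest on 2, 10 and 10 reads, and knockout 1 and knockout 2 held 745 and 195 reads. Fendrr and Foxf1 lie side by side, and no source used here says whether counting used the strand, so reads of one may be counted in the other.

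Isl1 (ENSMUSG00000042258), the LIM homeodomain factor, was at 12.0, 10.6 and 13.9 TPM in the controls and at 66.9, 32.9 and 2.44 TPM in the knockouts. It was the highest of the 7 genes in every library except knockout 3, where Shh was higher. The knockouts lay on both sides of the controls: knockout 1 and knockout 2 were 5.51 and 2.71 times the control mean, and knockout 3 was 0.201 times it. Evx1 (ENSMUSG00000005503) behaved likewise, at 1.89, 4.12 and 3.99 TPM in the controls and at 22.3, 8.74 and 0.415 TPM in the knockouts. Its knockout 3 value was 0.124 times the control mean. Knockout 3 held 81 reads of Isl1 and 10 of Evx1, against at least 346 and 53 in each control.

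**Figure D1:**
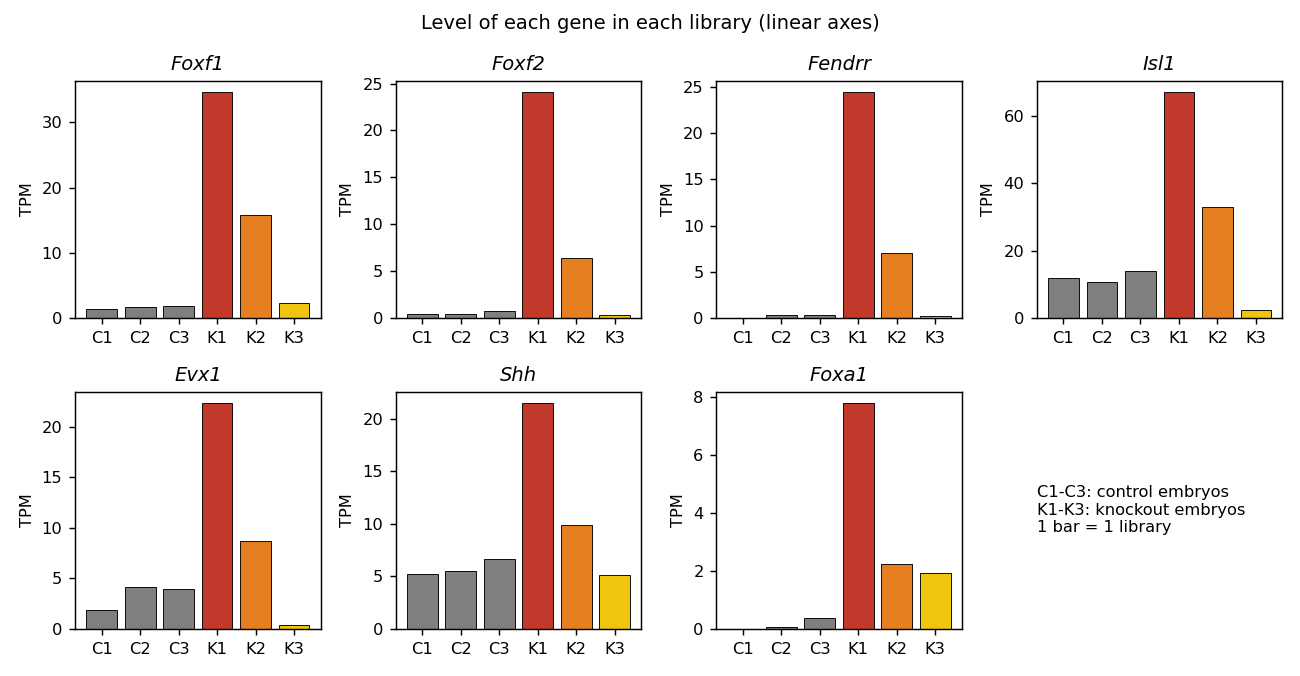
TPM (vertical axes, linear, 1 scale per gene) of the 7 genes in each library, with 1 bar per library (C1 to C3 controls, K1 to K3 knockouts). In each of the 7 genes knockout 1 is the highest bar and knockout 2 the second. Knockout 3 is below every control for Foxf2, Isl1, Evx1 and Shh, by a small margin for Foxf2 and Shh.

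All 7 genes had their highest value in knockout 1 and their second highest in knockout 2, an order that 5.75% of all tested genes showed. The choice of the genes used these levels, so the count is read no further. Knockout 3 lay below every control for 4 genes, within the controls for 1 and above every control for 2, Foxf1 and Foxa1. For Foxf2 that place rests on 6 recovered reads in knockout 3, against 10, 8 and 14 in the controls. For Shh it rests on 123 reads, against 146, 129 and 152 in the controls. Foxf1 held 46 reads in knockout 3, against 33, 35 and 36 in the controls. For Foxf1 and Foxa1 the groups did not overlap, with the knockouts higher, as for 8.14% of all tested genes. The test kept genes that reached 1 TPM in 3 or more libraries, which 5 of the 7 did: Foxf1, Isl1, Evx1, Shh and Foxa1. Foxa1 reached 1 TPM only in the knockouts, so it passed only through the group where it is high. Foxf2 and Fendrr reached 1 TPM in knockout 1 and knockout 2 alone and were not in the fit. None of those that passed was called by limma at an adjusted p under 0.05, where 0.131% of all tested genes were called higher. Of the 7, 4 are marked higher at an adjusted p under 0.05 in the authors' deposited table, as are 1.38% of genes with an adjusted p there. These are Foxf1, Foxf2, Fendrr and Foxa1, with log2 fold changes of 3.41, 4.30, 5.34 and 4.79 in the authors' deposited table. The genes were chosen for these same levels, so both counts of calls are read no further.

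The mean difference of knockout minus control on the log2(TPM + 1) scale, which understates the change of low genes, depended on single libraries. For Isl1 it was 0.61 with all libraries, 1.88 without knockout 3 and -0.28 without knockout 1. For Evx1 it was 0.71, 1.84 and -0.18 in the same order. For Shh it was 0.76, 1.21 and 0.27. The difference of Foxf1 was 2.23 with all libraries, 3.19 without knockout 3 and 1.47 without knockout 1. That of Foxf2 was 2.03, 3.16 and 1.03, and that of Fendrr was 2.34, 3.50 and 1.35. That of Foxa1 was 1.94, 2.22 and 1.43. With a pseudocount of 0.1 in place of 1, the difference was 4.05 for Foxa1 and 3.63 for Fendrr, each over 1.5 times the value above. The sign turned for Isl1 and Evx1 only, and only without knockout 1, among the omissions of 1 library.

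The 7 genes were not raised to the same extent in knockout 1 over knockout 2. The ratio of TPM was 2.03 for Isl1 (95% interval 1.89 to 2.19), 2.17 for Shh (1.86 to 2.53) and 2.20 for Foxf1 (1.93 to 2.51). It was 3.49 for Fendrr (2.97 to 4.10) and 3.76 for Foxf2 (3.09 to 4.60). The intervals of Fendrr and Foxf2 lay above those of Isl1, Shh and Foxf1. Evx1 was between, at 2.56 (2.18 to 3.01), and Foxa1 was at 3.50 with a wide interval (2.34 to 5.38). These intervals are exact binomial (Clopper-Pearson) on the recovered reads, cover counting error only and compare 2 libraries, not conditions.

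**Figure D2:**
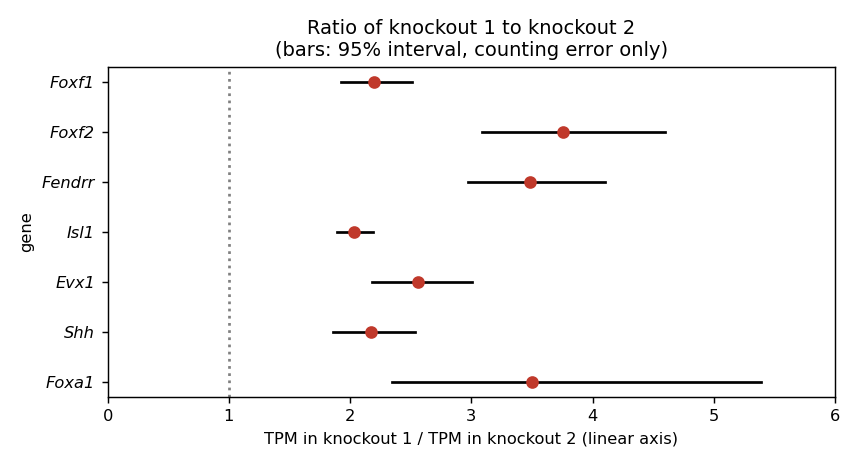
TPM in knockout 1 divided by TPM in knockout 2 (horizontal axis, linear) for each of the 7 genes, with points for the ratio and bars for the 95% interval of counting error. Isl1, Shh and Foxf1 lie near 2.03 to 2.20, and Fendrr and Foxf2 lie at 3.49 and 3.76.

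Over the 6 libraries, the 21 pairs of genes had a median Pearson r of 0.89 on log2(TPM + 1), from 0.53 to 0.995. The genes were chosen for being high in the same libraries, so these values are a description. Without knockout 1 the median was 0.76 over the other 5 libraries, and the lowest was -0.05. Foxf1, Foxf2, Fendrr and Shh stayed close to each other: Foxf1 with Fendrr had r = 0.99 and Foxf2 with Shh 0.97 without knockout 1. Isl1 and Evx1 formed a second close pair, at 0.97 over 6 libraries and 0.94 without knockout 1. Foxa1 had r = 0.53 with Isl1 and 0.60 with Evx1 over 6 libraries, and -0.05 and 0.0067 without knockout 1. In that last comparison knockout 3 is high for Foxa1 and low for Isl1 and Evx1.

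**Figure D3:**
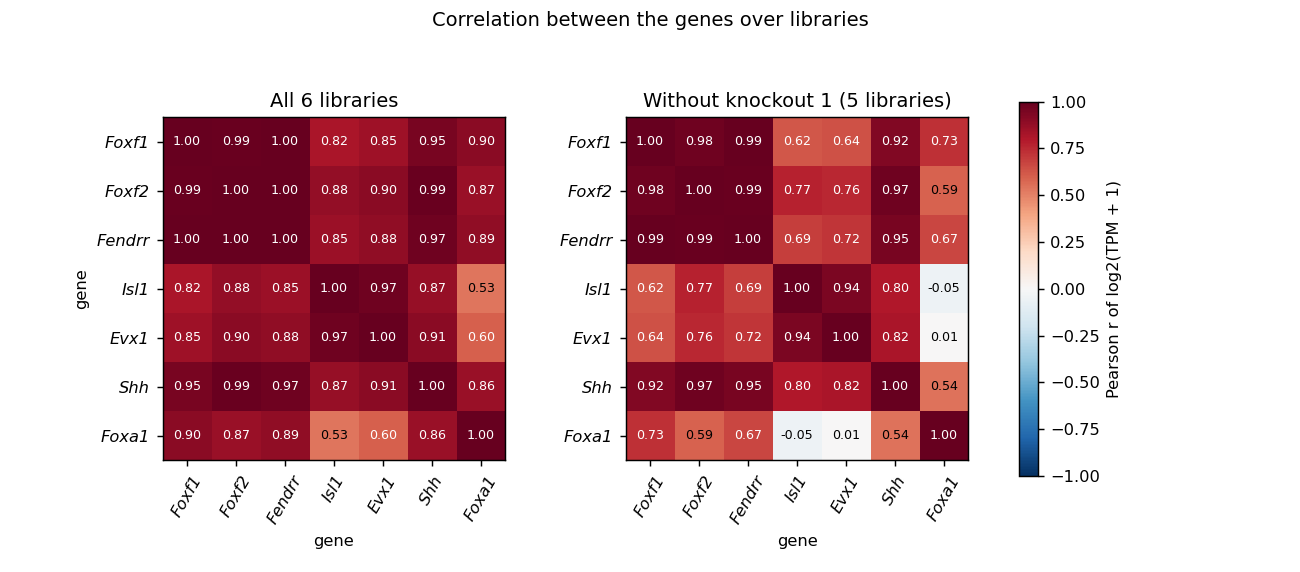
Pearson r of log2(TPM + 1) between each pair of the 7 genes (both axes), over all 6 libraries on the left and over 5 libraries without knockout 1 on the right, with color and the printed number giving r. Foxf1, Foxf2, Fendrr and Shh stay close on both sides, and the r of Foxa1 with Isl1 goes from 0.53 to -0.05.

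The genes beside each member along the chromosome were read next, with the order taken from RefSeq on GRCm38.p6. Of 24 neighbouring genes that are not among the 7, 22 were in the table, and limma called 0. Highest in knockout 1 and second in knockout 2 were 4, against 5.75% of all tested genes: Evx1os, Hottip, Foxq1 and Cox4i1. Cox4i1, a respiratory chain gene beyond Irf8 from Fendrr, was at 474, 457 and 477 TPM in controls. In the knockouts it was at 546, 537 and 460 TPM. Evx1os, the antisense RNA gene of Evx1, was at 2.18, 3.37 and 3.30 TPM in controls and at 24.4, 8.53 and 0.870 TPM in knockouts. Hottip, the noncoding RNA gene at the end of the Hoxa cluster, was at 1.00, 0.631 and 1.30 TPM in controls and at 4.95, 1.94 and 0.0829 TPM in knockouts. Both were above the controls in knockout 1 and knockout 2 and below them in knockout 3, as was Evx1, and the strand question holds for Evx1 and Evx1os too. On the other side of Evx1, the metabolic enzyme gene Hibadh ran only from 15.5 to 19.8 TPM.

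Foxc2, a forkhead gene of mesenchyme and vessels beyond Mthfsd from Foxf1, was at 33.2, 28.6 and 33.8 TPM in controls and at 53.9, 58.5 and 40.2 TPM in knockouts. Foxc1, beside Foxf2, was at 24.8, 24.7 and 24.6 TPM in controls and at 44.0, 49.9 and 21.1 TPM in knockouts. For Foxc1 and Foxc2 knockout 2, not knockout 1, was the highest library. Foxq1, on the other side of Foxf2, was at 1.70, 1.60 and 1.34 TPM in controls and at 3.73, 2.66 and 1.97 TPM in knockouts. Of these, Foxc2 and Foxq1 did not overlap between the groups, but limma's adjusted p was 0.123, 0.541 and 0.410 for Foxc2, Foxc1 and Foxq1. The neighbours of Isl1, Shh and Foxa1 did not show the order. Beside Isl1, Pelo and Parp8 ran from 8.58 to 12.2 and from 16.4 to 20.6 TPM. Beside Shh, Rbm33 and Lmbr1 ran from 30.5 to 36.6 and from 10.6 to 14.2 TPM. On 1 side of Foxa1, Mipol1 and Prps1l3 ran from 3.58 to 5.48 and from 75.5 to 94.9 TPM. On its other side Ttc6 was at 0.154, 0.181 and 0.0933 TPM in controls. In the knockouts Ttc6 was at 0.342, 0.232 and 0.322 TPM, higher than any control, as Foxa1 was. Ttc6 stayed under 1 TPM in every library and was not in the fit.

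**Figure D4:**
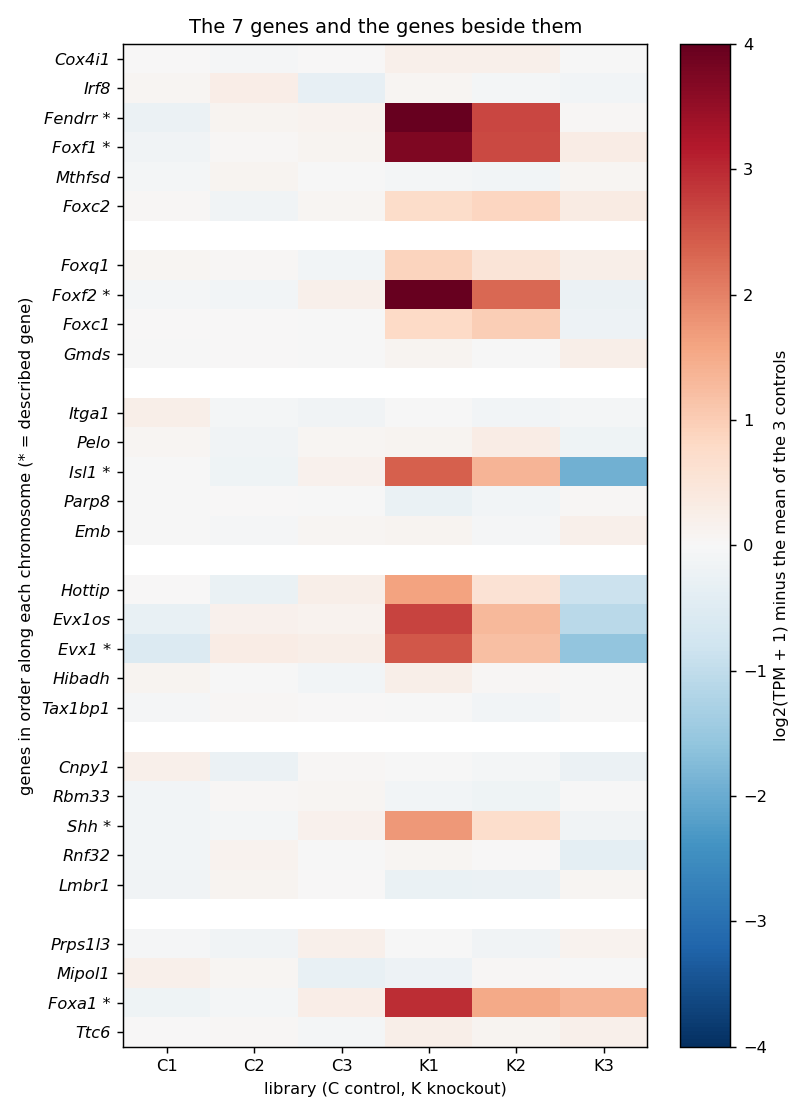
Color gives log2(TPM + 1) minus the mean of the 3 controls for each library (horizontal axis) in the 7 genes (starred) and their neighbours in chromosome order (vertical axis, 1 block per locus). Fendrr and Foxf1 stand out between Irf8 and Mthfsd, and Hottip, Evx1os and Evx1 form a block that ends before Hibadh.

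The mean standardised profile of the 7 genes was set against 1041 other genes that reached 2 TPM and ranged over at least 1.5 on the log2(TPM + 1) scale. Of these, 32 genes (3.07%) had a Pearson r of at least 0.95 over the 6 libraries, as a description. The 15 named genes most alike had r from 0.971 to 0.997, and from 0.915 to 0.998 over 5 libraries without knockout 1. First was Vax1, a homeodomain factor gene, at 0, 0 and 0.223 TPM in controls and at 9.15, 2.67 and 0 TPM in knockouts. Pirt, Krt15 and Serpina3a came next, and then Hoxb13, Evx2, Sall4 and Hoxd12. Hoxb13 was listed at 0 in all controls and at 2.37, 1.19 and 0 TPM in the knockouts. Evx2, which lies at the end of the Hoxd cluster, was at 0.785, 0.462 and 0.862 TPM in controls and at 12.1, 4.83 and 0.0570 TPM in knockouts. Hoxd12 ran from 7.71 to 8.26 TPM in controls and was at 41.4, 19.8 and 4.52 TPM in knockouts. Sall4, a zinc finger factor gene of progenitor cells, was at 16.3, 7.12 and 1.60 TPM in knockouts against at most 2.86 TPM in controls.

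The rest of the 15 were of other kinds. Dbh, Scg3, Ina and Rgs4 are expressed in neurons or neuroendocrine cells; Dbh, an enzyme of noradrenaline synthesis, was at 10.3, 3.27 and 0.709 TPM in knockouts against 0.720 to 1.07 TPM in controls. Krt15, a keratin gene of stratified epithelium, was at 10.3, 5.60 and 2.70 TPM in knockouts against 3.02 to 3.29 TPM in controls. Cyp17a1, a steroidogenic enzyme gene, was at 2.75, 1.68 and 0.129 TPM in knockouts against at most 0.0742 TPM in controls. The others were Pirt, Serpina3a, Zfp536 and Sh3bgr.

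Taken gene by gene, the nearest patterns differed among the 7. Isl1 was most like Phox2a, a factor of autonomic neurons (r = 0.997), and then Hoxa13 (0.996) and Insm1 (0.981). Phox2a was at 1.62, 1.43 and 2.39 TPM in controls and at 9.03, 4.57 and 0 TPM in knockouts. Evx1 was most like its neighbour Evx1os (0.986), Hoxa13 (0.980) and Nalf1 (0.976). Hoxa13 was at 9.29, 10.3 and 13.7 TPM in controls and at 54.4, 31.2 and 2.54 TPM in knockouts. Foxf2 was nearest to Vax1, Foxf1 to Sh3bgr, Fendrr to Hoxb13 and Shh to the annexin gene Anxa8. Foxa1 was most like Eya4 (0.963), the gut mesenchyme forkhead gene Foxl1 (0.953) and the cartilage collagen gene Col2a1 (0.946). Foxl1 was at 0.988, 1.12 and 0.921 TPM in controls and at 9.81, 5.33 and 2.25 TPM in knockouts.

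The name visceral and cloacal mesenchyme was checked against 14 lists of cell type and pathway genes, of which 142 of 164 genes were in the table and 120 were tested. Limma called 6 of the tested genes higher and 3 lower, against 0.131% and 0.313% of all tested genes. Of these 9 calls, 3 remained when control 1 was left out, 0 without control 2 and 1 without control 3. Without knockout 1 there remained 2, without knockout 2 there remained 1, and without knockout 3 there remained 8. The median log2 difference of all tested genes was -0.0075. At an adjusted p under 0.05 the authors' deposited table marks 1.38% of its genes with an adjusted p higher and 2.17% lower. Higher there are 4 skeletal muscle and cartilage, 4 gonadal, 3 smooth muscle, 3 other forkhead, 2 gut, 2 neuronal, 2 LIM and 1 cloacal. Lower there are 3 duct and tubule, 2 endothelial, 1 endoderm, 1 mesenchymal signal and 1 LIM. Hedgehog and tail bud lists have 0, and some genes are in more than 1 list.

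Genes of cloacal, genital and hindlimb mesenchyme, which include the posterior Hox genes, matched the order of the 7 genes in part. Of 13 tested, 0 were called, the median difference was 0.30, and 6 were highest in knockout 1 and second in knockout 2, against 5.75% of all tested genes. That share of 5.75% also stands beside the count of the order in each list that follows. The 6 cloacal genes were Hoxa13, Hoxd13, Hoxd12, Hoxa11, Hoxd11 and Pitx1. Hoxd13, a factor needed for genital and limb ends, was at 17.1, 18.4 and 16.1 TPM in controls and at 114, 53.1 and 6.83 TPM in knockouts. The list's genes of highest level, the T-box genes Tbx2 and Tbx3, ran from 168 to 248 and from 78.3 to 133 TPM. Among tested genes without the order, Sall1, Dlx5, Tbx3, Msx2 and Tbx2 had differences of -0.72, -0.50, -0.36, -0.24 and -0.06. Msx1 and Alx4 had differences of 0.28 and 0.30. The list's 2 genes with an unadjusted p under 0.05 in limma were Sall1 and Tbx3, both lower. Sall1 was at 8.12, 7.63 and 7.01 TPM in controls and at 7.83, 3.05 and 2.95 TPM in knockouts. The list summed to 415 to 462 TPM in controls and to 672, 492 and 316 TPM in knockouts, and its part in the levels of the 7 genes was not tested.

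Of 7 tested gut and visceral mesenchyme genes, 1 was called higher and 0 lower, the median difference was 0.41, and 1 showed the order of the 7 genes. Gata6, a zinc finger factor gene, rose from 47.9 ± 0.764 to 70.2 ± 3.94 TPM (mean ± SD, n = 3; limma adjusted p = 0.0199), with knockout 3 at 68.2 TPM. The gene that showed the order was Foxl1, whose values are given above. Barx1, Nkx2-3, Tlx1, Hand1 and Tbx5, markers of stomach, gut and other visceral mesenchyme, did not exceed 3.16 TPM in any library. Hand1, which was not in the fit, also had the order. It was at 0.927, 0 and 0.624 TPM in controls and at 3.16, 2.51 and 0 TPM in knockouts. Nkx2-3 was at 0.412, 2.26 and 0 TPM in knockouts, against at most 0.236 TPM in controls. Hlx was at 13.3, 12.0 and 13.7 TPM in controls and at 17.8, 27.7 and 9.22 TPM in knockouts. For Hlx knockout 1 and knockout 2 lay above every control and knockout 3 below, with knockout 2 the highest. Wnt2b ran from 20.1 to 35.8 TPM, and Wnt2 and Tbx4 did not exceed 4.92 TPM. Nkx3-2 and Nkx2-5 were not analysed here. The list summed to 89.2 to 102 TPM in controls and to 138, 142 and 121 TPM in knockouts.

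Shh and Foxa1 are epithelial, and 6 endoderm genes were tested: 0 were called, the median difference was 0.058, and 2 showed the order. The urothelial gene Upk1b, the list's highest, ran from 23.7 to 67.2 TPM in controls and from 29.5 to 53.4 TPM in knockouts. Upk1a was at 4.77, 2.47 and 5.53 TPM in controls and at 8.65, 6.79 and 3.86 TPM in knockouts. The list summed to 38.2 to 75.9 TPM in controls and to 55.3, 67.5 and 38.2 TPM in knockouts. Foxa2, Foxa3, Cdx2 and other genes of this list were not analysed here. Of 3 tested tail bud genes 0 were called and the median difference was -0.24; Rspo3 and Sp5 were the highest of them, and 1, Rspo3, showed the order. That list summed to 65.4 to 70.1 TPM in controls and to 85.7, 81.0 and 59.95 TPM in knockouts.

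Isl1 is also a gene of neurons. Of 8 tested genes of motor, sensory and sympathetic neurons 0 were called, the median difference was 0.81, and 7 were highest in knockout 1 and second in knockout 2. These were Isl2, Phox2a, Th, Dbh, Tubb3, Elavl4 and Prph. Tubb3, the neuronal tubulin, was at 7.81, 5.96 and 5.47 TPM in controls and at 34.6, 14.5 and 4.09 TPM in knockouts. Stmn2, the gene of highest level in the list, ran from 32.0 to 44.0 TPM over the 6 libraries and did not show the order. The list summed to 46.8 to 60.5 TPM in controls and to 127, 73.9 and 49.3 TPM in knockouts, and its part in the levels of Isl1 was not tested.

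The genes of the hedgehog pathway around Shh, Foxf1 and Foxf2 were read next. Of 15 tested ligands, receptors and effectors 0 were called and 0 had an unadjusted p under 0.05 in limma. The median difference was -0.032, and 1, Gli1, showed the order. That count is read no further, since 5.75% of all tested genes showed the order. The authors' deposited table marks 0 of these ligands, receptors and effectors at an adjusted p under 0.05. Gas1 and Smo, its genes of highest level, ran from 351 to 396 and from 127 to 160 TPM. The target genes Gli1 and Ptch1 were at 95.8 to 98.8 and 31.8 to 36.4 TPM in controls. In the knockouts Gli1 was at 108, 106 and 75.6 TPM and Ptch1 at 42.4, 36.3 and 30.2 TPM. Of 9 tested mesenchymal signal genes 0 were called higher and 1 lower, with a median difference of 0.050: Wnt5a fell by 0.51 on the log2 scale (SE 0.080; limma adjusted p = 0.0467), from 163 ± 1.17 to 115 ± 11.9 TPM. Bmp4, a signal that Foxf1 and Isl1 are known to act upon, showed the order. It was at 47.4, 52.9 and 50.2 TPM in controls and at 84.4, 61.3 and 35.3 TPM in knockouts.

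Of 14 other forkhead genes limma called 0, the median difference was 0.22, and 4 showed the order: Foxl1, Foxq1, Foxd1 and Foxm1. The authors' deposited table marks 3 of the forkhead list higher at an adjusted p under 0.05: Foxl1, Foxd1 and Foxc2. The genes of that list with the highest mean TPM over the 6 libraries were Foxm1, which ran from 46.3 to 58.6 TPM, and Foxc2, whose values are given above beside Foxf1. Foxp1, which came next, ran from 36.0 to 41.4 TPM. Of 9 tested LIM cofactor and LIM homeobox genes, 1 was called higher (Lhx9, a gonadal factor) and 1 lower (Lhx1, a duct and tubule factor), with a median of 0.16, and 3 showed the order. These were Isl2, Lmo4 and Ldb1. Lmo4, a partner of LIM factors, was at 48.5, 51.9 and 51.1 TPM in controls and at 85.5, 65.1 and 45.9 TPM in knockouts.

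Other cell types were set beside the 7 genes. Of 8 tested gonadal somatic genes 3 were called higher and 0 lower (Nr5a1, Gata4 and Lhx9), with a median of 0.91, and 3 showed the order. The gonadal list summed to 312 to 323 TPM in controls and to 454, 422 and 383 TPM in knockouts. Among skeletal muscle and cartilage genes 2 were tested, and both were called higher, with a median of 1.45: Col2a1, at 22.9, 18.0 and 16.3 TPM in knockouts against 4.64 to 6.34 TPM in controls, and Col9a1. The muscle regulator Myog was at 0, 0.324 and 0.5002 TPM in controls and at 0.436, 2.87 and 6.55 TPM in knockouts, so knockout 3 was highest. That list summed to 6.69 to 8.74 TPM in controls and to 29.4, 28.2 and 32.7 TPM in knockouts. The part of these cell types in the levels of the 7 genes was not tested.

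Duct and tubule genes, endothelial genes and smooth muscle genes showed the order in 0 of 12, 0 of 10 and 1 of 8 tested genes. Limma called 2 duct and tubule genes lower (Lhx1 and Calb1) and 0 higher, with a median of -0.22. Of endothelial genes, among which Foxf1 is also expressed, 0 were called, with a median of -0.24. The highest of them were Plvap, which ran from 95.8 to 143 TPM, and Cdh5, at 104 to 109.8 TPM in controls and 84.8 to 92.6 TPM in knockouts. Of smooth muscle genes, a later fate of visceral mesenchyme, 0 were called, with a median of 0.41. Acta2, the smooth muscle actin, was highest in knockout 3, at 80.2 TPM, against 47.2 and 54.6 TPM in knockout 1 and knockout 2 and 33.1 to 48.5 TPM in controls. Mylk ran from 23.4 to 30.4 TPM. For the mesonephros label, duct and tubule markers were present in all 6 libraries, with Cdh16 at 78.6 to 97.8 TPM and Emx2 at 121 to 149 TPM. The sums were 506 to 559 TPM in controls and 444 to 495 TPM in knockouts for duct and tubule genes, 580 to 614 and 512 to 548 TPM for endothelial genes, and 93.7 to 109 and 116 to 149 TPM for smooth muscle genes.

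**Figure D5:**
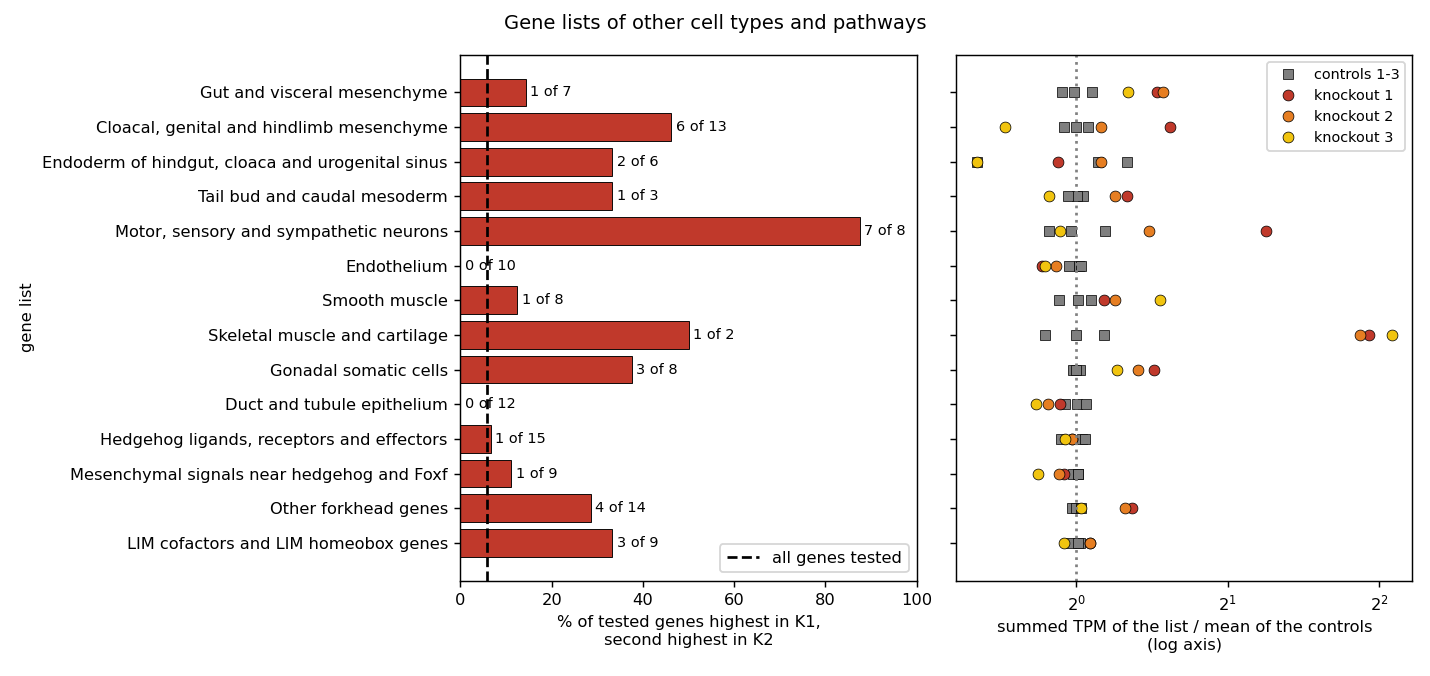
For each list (vertical axis), the left panel gives the percent of tested genes that were highest in knockout 1 and second in knockout 2 (bars, with the counts and a dashed line at 5.75% for all tested genes). The right panel gives the summed TPM of each library over the mean of the controls on a log axis; the order was present in 7 of the 8 neuronal genes reported and in 6 of 13 cloacal and genital genes.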

How the data were processed

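RNA of 6 mesonephroi was sequenced after poly(A) selection, in read pairs, per the labels' protocols. GRCm39 and DESeq2 are named in the submitters' processing notes; aligner, counter, strand, annotation and gene filter were not given in the sources used here. Deposited by the authors was 1 TPM value per gene and library for 20033 genes, each column summing to 1000000, per the file headers. The authors' log2 fold changes, with their p-values and adjusted p-values, are deposited in the same table and quoted only as such. Samples were grouped by title.

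Limma 3.58.1 (R 4.3.3) was run with a mean-variance trend on log2(TPM + 1), with genotype as the only term, over genes that reached 1 TPM in 3 or more libraries. Benjamini-Hochberg adjustment covered all 17577 genes, with a threshold of 0.05. The steps were tested on simulated data. A pair of genes of the neuron list is not reported here and was left out of its counts and sums. The genes and lists were chosen with earlier results of these data known. Named from each list were up to 4 called genes or else the 2 of highest level. List genes named for their order over libraries, for low level or as hedgehog targets were chosen after their values were seen. So were Bmp4, Upk1a, Vil1, Krt5, Myog, Lmo4, Foxp1, Cdh16, Emx2, Hlx, Nkx2-3, Wnt2b, Wnt2 and Tbx4. The same holds for Sall1, Dlx5, Msx1, Msx2 and Alx4 of the cloacal list. Neighbours were the nearest 2 named genes on each side. Depth is unknown from TPM, but the 6 values of a gene came out as whole multiples within 0.02 reads for 94.4% of 500 random genes (0% after random changes of the values). Reads recovered this way can miss a factor common to all 6 libraries, so they are lower bounds. Labels name separate mice, and p-values measure the spread between them. The alternatives were median-ratio scaling, a pseudocount of 0.1, no filter, no trend, a replicate block and leaving out each library.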

Additional observations from a re-analysis of the deposited data

How the results depend on the processing

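The count of 78 called genes was 17 with the mouse number as a replicate block and 28 without the trend in limma, and it ran from 13 to 242 when 1 library was left out. Same-numbered control and knockout libraries had correlations of deviations of -0.064, 0.050 and -0.051. The highest of all pairs was control 3 with knockout 1, at 0.11. With 3 libraries per group these values cannot decide whether a number marks a shared litter. With the block 2 of the 9 called list genes remained. Median-ratio scaling, a pseudocount of 0.1 and no filter gave 69, 74 and 80 calls. The median correlation between the 7 genes was 0.89 with median-ratio scaling and 0.85 with a pseudocount of 0.1, and ran from 0.76 to 0.98 when 1 library was left out. The block, the trend and the filter do not enter it. Among 56 alternative values of the 7 genes' differences, 2 reversed, both without knockout 1. A pseudocount of 0.1 took Foxa1 from 1.94 to 4.05 and Fendrr from 2.34 to 3.63. With 1 library left out, Isl1 ran from -0.28 to 1.88 and Evx1 from -0.18 to 1.84. No called list gene reversed in the 11 alternatives, but all 9 lost the call in at least 1 of them. Reads limit the control values of Foxf2, Fendrr and Foxa1, and the knockout 3 value of Foxf2.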
